A study of Mus musculus with 4 samples.

Results

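The hairpins miR-340, miR-361, miR-676 and miR-1981 are 4 single mouse miRNA precursors of which both the 5p and the 3p arm had higher levels in the GFP-AGO2 libraries than in the Control libraries. Their 8 arms were chosen by their library-scaled counts: each had to be higher in both GFP-AGO2 libraries than in both Control libraries, and the hairpin had to lie outside the larger miRNA families. They are 8 of the 1900 miRNA names in the table, and 8 of the 1106 names with any count. Because these values chose the arms, the changes between the groups are given as a description, with no p-value for any of the 8.

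The GFP-AGO2 group (n = 2) came from C57BL/6 mice injected with LV.PGK.GFP-AGO2. The name of this vector gives AGO2 joined to green fluorescent protein under the PGK promoter, a promoter active in most cell types. The Control group (n = 2) came from sham-injected C57BL/6 mice without a vector. In both groups the olfactory bulb was dissected 8 weeks after the injection, and small RNA was sequenced after immunoprecipitation for AGO2. The series title concerns newborn neurons, but the labels name whole olfactory bulb tissue as the source. Neither the antibody nor whether each library stands for a mouse of its own is stated in the labels.

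A miRNA precursor is a folded hairpin that the nucleases Drosha and Dicer cut to a short duplex of 2 strands, the 5p and the 3p arm. An Argonaute protein such as AGO2 keeps a strand of the duplex as its guide and releases the other, so that a single arm usually makes up most of the mature RNA of a hairpin. The guide finds its targets mainly through its seed, bases 2 to 8. Both arms can serve as guides, and they pair with different targets because their seeds differ.

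The mature sequences of the arms are shown because the arms of a hairpin carry different seeds. They come from RefSeq (GRCm38.p6, the assembly also called mm10), where 7 of the 8 arms matched an entry at the coordinates of the count table. They are written 5′ to 3′ with the seed in capitals, and miR-676-5p is given by name.
mmu-miR-340-5p: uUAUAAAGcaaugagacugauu
mmu-miR-340-3p: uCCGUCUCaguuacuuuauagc
mmu-miR-361-5p: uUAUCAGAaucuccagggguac
mmu-miR-361-3p: uCCCCCAGgugugauucugauuugu
mmu-miR-676-3p: cCGUCCUGagguuguugagcu
mmu-miR-1981-5p: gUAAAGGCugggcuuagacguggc
mmu-miR-1981-3p: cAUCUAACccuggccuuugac

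The 7 seeds were all different, and no other name among the 1603 of the table with a RefSeq mature sequence had any of them. Both arms of miR-340 and of miR-361 begin with U. The first base is C in miR-676-3p and miR-1981-3p, and G in miR-1981-5p. Among 405 names that passed the filter on low counts and matched a sequence, 43% began with U, 24.2% with A, 22.2% with C and 10.6% with G. The GC content of the arms reached from 27.3% in miR-340-5p to 58.3% in miR-1981-5p.

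The precursors are shown because the balance of their arms is described further on. The RefSeq hairpins are written 5′ to 3′ with the matched mature arms in capitals.
miR-340: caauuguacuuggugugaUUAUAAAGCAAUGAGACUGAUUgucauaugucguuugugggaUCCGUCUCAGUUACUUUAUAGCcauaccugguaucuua
miR-361: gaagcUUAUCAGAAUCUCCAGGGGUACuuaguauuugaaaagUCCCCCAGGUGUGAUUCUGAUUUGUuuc
miR-676: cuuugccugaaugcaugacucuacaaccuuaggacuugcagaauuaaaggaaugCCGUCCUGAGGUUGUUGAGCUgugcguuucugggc
miR-1981: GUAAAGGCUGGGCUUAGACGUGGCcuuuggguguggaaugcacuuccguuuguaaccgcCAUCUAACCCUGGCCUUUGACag

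In the fold of lowest energy predicted by RNAfold, 5 to 7 of the 7 seed bases of each of the 7 arms were paired. The arms lie 15 bases apart in miR-361 and in miR-676, 20 in miR-340 and 35 in miR-1981. The median over 106 hairpins with both arms in the fit and a single position for each arm was 16 bases. Hairpins whose arms lay far apart by position were left out of this median.

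Each hairpin lies in an intron of a protein-coding gene, on the strand of that gene (mm10 coordinates of the count table, GENCODE M21 genes). On chromosome 11, miR-340-5p at 50069720 to 50069741 and miR-340-3p at 50069762 to 50069783 (plus strand) lie within Rnf130, which encodes a RING-finger ubiquitin ligase. MiR-361-5p (X, 113074867 to 113074888) and miR-361-3p (X, 113074827 to 113074851), on the minus strand, lie within Chm, which encodes a Rab escort protein. MiR-676-5p (X, 100381114 to 100381135) and miR-676-3p (X, 100381151 to 100381171), on the plus strand, lie within Eda, which encodes the signalling ligand ectodysplasin A. MiR-1981-5p (chromosome 1, 184822465 to 184822488) and miR-1981-3p (184822409 to 184822429), on the minus strand, lie within Marc2, which encodes a mitochondrial reductase. No other miRNA name of the table lay within 10 kb of any of the 4 hairpins. Each arm had 1 position and overlapped no other name.

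The libraries held 2809758 and 1858354 miRNA counts in GFP-AGO2 and 1006861 and 673916 in Control. Levels and fold changes below therefore use CPM (counts-per-million), with library sizes scaled by TMM, the trimmed mean of M-values. The filter, the shares of counts and the ranks within a library use unscaled counts. Levels are not divided by length, since the arms are 21 to 25 bases long. All 8 arms were among the 457 names that passed the filter, and each exceeded its cutoff of 6.98 CPM in the 2 libraries of either group. The 8 neuronal markers listed summed to 1.91% and 1.73% of the counts in GFP-AGO2, against 1.33% and 1.48% in Control. All 4 oligodendrocyte markers were listed at 0 in the 4 libraries, and all 4 overlap another name in the table. Counting had no option for reads on several names, so a 0 for such a name does not show that the miRNA was absent.

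Of the hairpins, miR-676 had the highest counts in every library and, in its 5p arm, the largest of the 8 fold changes. MiR-676-3p had 2449 and 2350 CPM in GFP-AGO2, against 1561 and 1552 CPM in Control. Its log2 fold change, GFP-AGO2 over Control, was 0.62 (standard error derived from the test of the fit, SE, 0.13), the smallest of the 8. The groups lay apart, and the lower GFP-AGO2 library was 1.51 times the higher Control library. MiR-676-5p had 353 and 319 CPM in GFP-AGO2 and 44.7 and 34.7 CPM in Control. It was rare in Control, with 43 and 21 counts, and ranked 256 and 273 among the names there, against 128 and 135 in GFP-AGO2. The log2 fold change was 3.06 (SE 0.22), the sixth highest value among the 457 names fitted. These are levels in immunoprecipitates for AGO2, not in the tissue, and the groups also differ in the vector. As the antibody is not stated, whether it bound AGO2 itself or the green fluorescent protein cannot be told. In the latter case Control, without the vector, would hold only background. In these bulk libraries, fewer cells of a type and less RNA per cell cannot be told apart. No cause of the differences was tested.

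MiR-361, whose 5p arm has been studied in human cells as a repressor of VEGFA, was the hairpin whose less changed arm was farthest above Control. MiR-361-3p, the more abundant arm, had 1035 and 1052 CPM in GFP-AGO2, against 428 and 365 CPM in Control (log2 fold change 1.39, SE 0.16). MiR-361-5p had 415 and 381 CPM in GFP-AGO2, against 161 and 173 CPM in Control (log2 fold change 1.25, SE 0.16). The GFP-AGO2 libraries differed from each other 1.02 times for miR-361-3p and 1.09 times for miR-361-5p, and the Control libraries 1.17 and 1.08 times.

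MiR-340, whose 5p arm is known as a growth-restraining miRNA in human tumour cells, had similar fold changes in its arms. MiR-340-5p had 1543 and 1446 CPM in GFP-AGO2, against 805 and 825 CPM in Control (log2 fold change 0.88, SE 0.14). MiR-340-3p had 391 and 362 CPM in GFP-AGO2, against 186 and 193 CPM in Control (log2 fold change 0.99, SE 0.16). Both arms stood at nearly the same multiple of Control, 1.83-fold for 5p and 1.99-fold for 3p.

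MiR-1981 was the hairpin with the largest gap between its GFP-AGO2 libraries. MiR-1981-5p had 691 and 1003 CPM in GFP-AGO2, against 362 and 388 CPM in Control (log2 fold change 1.18, SE 0.22). MiR-1981-3p, the least abundant of the 8 arms, had 82.5 and 106 CPM in GFP-AGO2, against 28.1 and 31.4 CPM in Control, where it rested on 27 and 19 counts (log2 fold change 1.67, SE 0.29). For both arms GFP-AGO2 replicate 3 was the higher library, and both GFP-AGO2 libraries lay above Control. Without that replicate the log2 fold change of miR-1981-5p was 0.90, and without GFP-AGO2 replicate 1 it was 1.44.

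**Figure D1:**
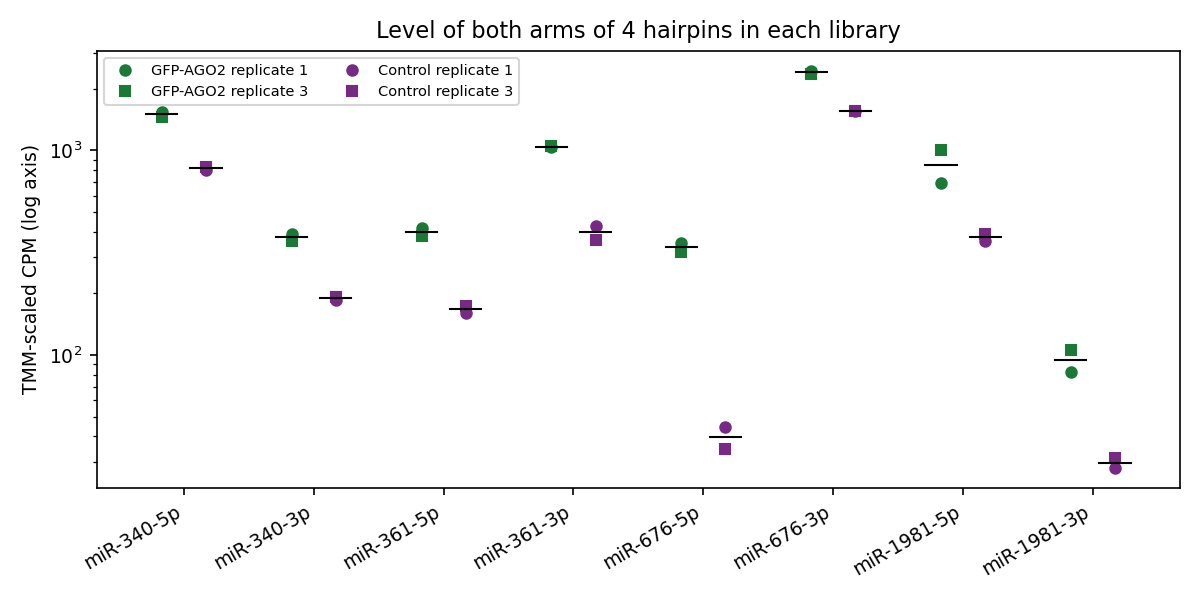
TMM-scaled CPM (log axis) of the 8 arms in each library, with GFP-AGO2 in green left of Control in purple, circles for replicate 1, squares for replicate 3 and black lines for group means. The groups are widest apart for miR-676-5p (336 CPM on average in GFP-AGO2, 39.7 in Control), and the replicates for miR-1981-5p (691 and 1003 CPM in GFP-AGO2).

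In GFP-AGO2 the mean levels ran from miR-676-3p (2400 ± 70.3 CPM, SD, n = 2) through miR-340-5p, miR-361-3p, miR-1981-5p, miR-361-5p, miR-340-3p and miR-676-5p to miR-1981-3p (94.5 ± 17 CPM). Among neighbours in this order, the libraries overlapped for miR-361-5p and miR-340-3p only. In Control the order began with miR-676-3p (1557 ± 6.75 CPM, SD, n = 2) and ended with miR-1981-3p (29.7 ± 2.33 CPM). There miR-361-3p and miR-1981-5p overlapped, and miR-340-3p stood above miR-361-5p. Together the 8 arms took 0.736% and 0.77% of the counts in GFP-AGO2, against 0.342% and 0.32% in Control.

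The 8 log2 fold changes ran from 0.62 to 3.06 with a median of 1.21, while the median of all 457 names was -0.01. The choice of the arms fixes that all 8 were higher in each GFP-AGO2 library than in each Control library. The same held for 168 of the 457 names (36.8%). Both arms were higher in 23 of the 109 hairpins whose arms both passed the filter (21.1%). For comparison, both arms were lower in 24 hairpins, and 19 had a higher and a lower arm. Over the whole table, the quasi-likelihood test of edgeR called 79 names higher (17.3%) and 78 lower (17.1%) at an adjusted p under 0.05.

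Among the 23 hairpins with both arms higher, ordered by the log2 fold change of the less changed arm, miR-361 was at place 1 with 1.25. MiR-1981 was at place 3 (1.18), miR-340 at place 9 (0.88) and miR-676 at place 13 (0.62). The values of all 23 reached from 0.15 to 1.25. Of the 4 hairpins, miR-676 was nearest to the limit of the choice, through its 3p arm. The nearest hairpin beyond that limit was miR-222, with 27.9 and 22.6 CPM in GFP-AGO2 against 23.9 and 14.9 CPM in Control for miR-222-5p. Its partner miR-222-3p had 5595 and 5713 CPM in GFP-AGO2, against 2904 and 3411 CPM in Control.

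**Figure D2:**
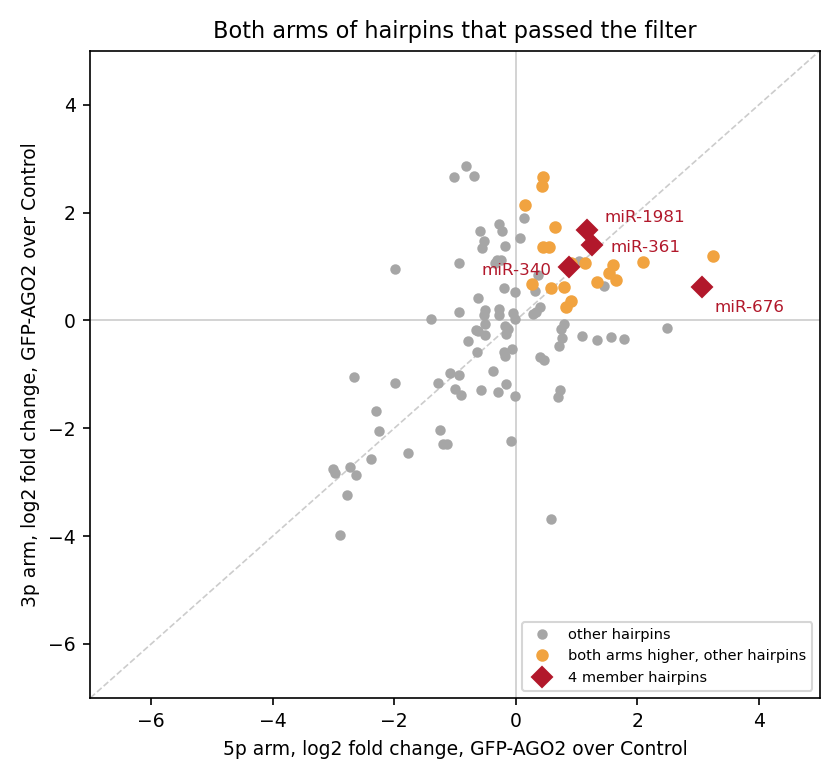
Log2 fold change (GFP-AGO2 over Control) of the 5p arm (horizontal) and the 3p arm (vertical) for the 109 hairpins with both arms in the fit; the dashed line marks equal change. Red diamonds are the 4 hairpins described, orange points the 19 others with both arms higher; miR-340, miR-361 and miR-1981 lie near the line and miR-676 lies far to the right of it (3.06 for 5p and 0.62 for 3p).

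The share of a hairpin's counts that falls on its 5p arm needs no scaling between libraries. It was above 50% for miR-340 and miR-1981 and below 50% for miR-361 and miR-676 in all 4 libraries. The more abundant arm exceeded its partner 3.95 to 4.32 times in miR-340, 2.1 to 2.76 times in miR-361, 6.94 to 44.8 times in miR-676 and 8.38 to 12.9 times in miR-1981. The choice of the hairpins did not use which arm was more abundant. An exact two-sided sign-flip permutation test over the 4 libraries of both groups gave p = 0.13 for each hairpin, also when adjusted over the 4 hairpins. This is the smallest value that 4 libraries allow. It arises whenever all 4 libraries lie on the same side of 50%, so it tells nothing about the size of the ratios.

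The balance of the arms in miR-676 stood apart between the groups. The 5p arm took 12.6% (95% exact binomial interval 11.9 to 13.3) and 12% (11.1 to 12.9) of the hairpin's counts in GFP-AGO2. In Control it took 2.78% (2.02 to 3.73) and 2.19% (1.36 to 3.32). The intervals, which cover counting error only, did not overlap between the groups. The log2 ratio of 5p to 3p was 2.47 higher in GFP-AGO2, where the replicates differed by 0.08, against 0.36 between the Control replicates. With a count of 0.5 added to both arms, this difference was 2.44. In size it was then at place 9 among 109 hairpins, whose median absolute difference was 0.79. In how many of these hairpins the arm shares lay apart between the groups was not counted. The difference in miR-676 comes from the contrast that chose the hairpins and was not tested. With 2 libraries against 2, a permutation test cannot go below 0.333.

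In the other hairpins the arm shares lay closer together. MiR-340 had 79.8% and 80% of its counts on the 5p arm in GFP-AGO2, against 81.2% and 81% in Control. MiR-361 had 28.6% and 26.6% in GFP-AGO2, against 27.3% and 32.2% in Control, so that the groups overlapped. MiR-1981 had 89.3% and 90.4% in GFP-AGO2, against 92.8% and 92.5% in Control. For miR-340 and miR-1981 the counting intervals of both GFP-AGO2 libraries overlapped those of both Control libraries. The log2 ratios of 5p to 3p differed between the groups by -0.11 in miR-340, -0.15 in miR-361 and -0.51 in miR-1981. With a count of 0.5 added to both arms, these differences were in size at places 97, 93 and 71 among 109 hairpins. The less abundant arm had the higher log2 fold change in miR-340, miR-676 and miR-1981 but not in miR-361. This was the case in 14 of the 23 hairpins with both arms higher and in 50 of all 109.

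**Figure D3:**
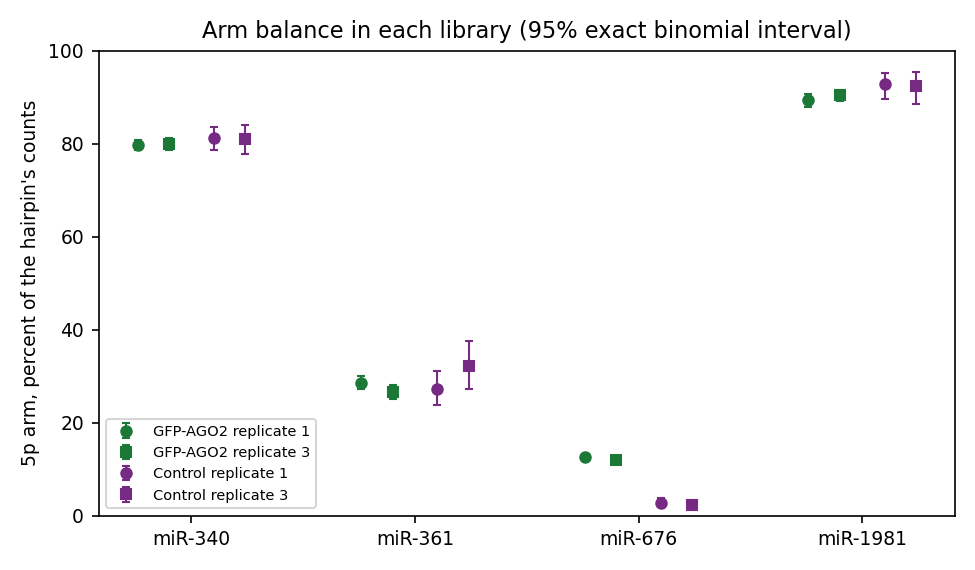
Percent of each hairpin's counts on its 5p arm in each library, GFP-AGO2 in green left of Control in purple, with 95% exact binomial intervals for counting error. The miR-676 points are 12.6% and 12% in GFP-AGO2 and 2.78% and 2.19% in Control, while those of the other hairpins lie close together.

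The miRNAs with the most similar profile were taken by the Euclidean distance of log2(CPM + 1), centred over the 4 libraries, from the mean profile of the 8 arms. The nearest 5 were miR-760-3p (distance 0.05), let-7d-3p (0.12), miR-434-3p (0.14), miR-501-3p (0.18) and miR-667-3p (0.19). The arms themselves lay between 0.15 (miR-361-3p) and 1.71 (miR-676-5p) from their mean. MiR-760-3p had 1929 and 2060 CPM in GFP-AGO2, against 749 and 756 CPM in Control. Let-7d-3p, a passenger arm of the let-7 family, had 14210 and 13387 CPM in GFP-AGO2, against 5188 and 5474 CPM in Control. Of the 5 names, miR-434-3p belongs to a hairpin with both arms higher. These names were picked for their likeness over 4 libraries, and no test was made.

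Other miRNAs also differed between the groups, some in the opposite direction. The 16 names of the miR-183 cluster and miR-200 family, which mark epithelial and sensory cells, summed to 2.61% and 5.1% of the counts in GFP-AGO2, against 23.9% and 23.4% in Control. With their counts left out of totals and fit, the median log2 fold change of the 8 arms was 1.23. Of 15 vessel, blood and immune markers in the table, 12 had counts, with summed shares of 0.037% and 0.172% in GFP-AGO2, against 0.497% and 0.367% in Control. MiR-126a-3p, miR-126a-5p and miR-142-3p of that list were at 0 and overlap another name, so their 0 does not show absence either. The part of these cells in the values of the 8 arms was not tested. Scaling by total counts alone moved the median of all names to 0.20, and the median of the 8 arms to 1.43.

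**Figure D4:**
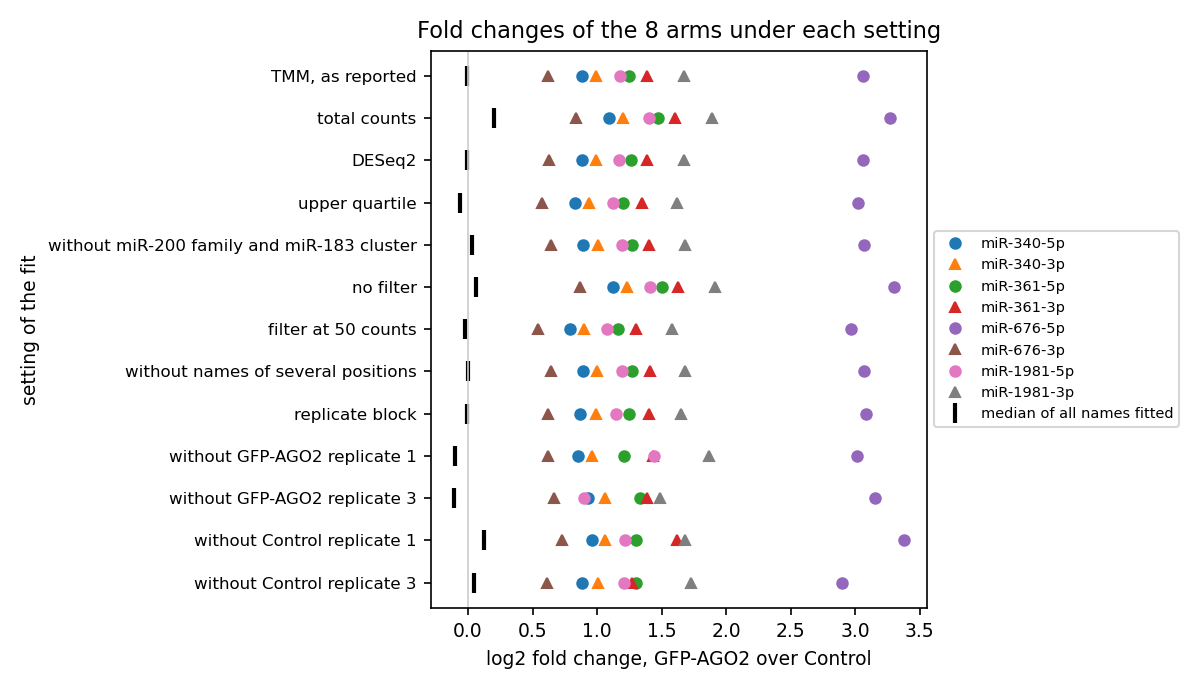
Log2 fold changes (GFP-AGO2 over Control) of the 8 arms under each setting of the fit, circles for 5p and triangles for 3p arms, with a black bar at the median of all names fitted. All points lie above 0 in each setting drawn, which the choice of the arms largely fixes. MiR-676-5p lies between 2.90 and 3.38 under the alternatives.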

How the data were processed

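Small RNA was sequenced from 4 libraries after AGO2 immunoprecipitation, 2 in GFP-AGO2 and 2 in Control. The deposited values are whole-number counts per mature miRNA name. Per the file headers, the authors counted primary alignments with featureCounts v1.4.6-p1, without an option for strand or for reads on several names. Per the submitters' processing notes, cutadapt, STAR and the build mm10 were used. Columns were tied to samples by their titles, with the replicate numbers 1 and 3 in both groups.

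The counts were fitted with edgeR 4.0.16 (R 4.3.3), with TMM factors and filterByExpr at a minimum count of 10. Log2 fold changes come from its quasi-likelihood fit, with Benjamini-Hochberg adjustment over all 457 names fitted. Each SE is the absolute log2 fold change divided by the square root of the F statistic of the quasi-likelihood test. The fit was checked on simulated data. Intervals of shares are Clopper-Pearson. Hairpins were paired by name and folded with RNAfold 2.7.2. Replicates differed beyond sampling noise (chi-square 47711 on 475 degrees of freedom in GFP-AGO2, 4564 on 383 in Control). Alternatives were total counts, upper quartile and DESeq2 1.42.0 scaling, other filters, a replicate block, and leaving out each library or a group of names. Names followed a written rule: the 8 arms, the hairpin beyond the limit of the choice, the 5 nearest profiles, and names sharing a seed or lying within 10 kb. The arms, lists and rule were chosen with earlier results of these data known. P-values reflect how far the libraries at hand vary, and that variation may be technical.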

Additional observations from a re-analysis of the deposited data

How the results depend on the processing

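All 8 arms had a positive log2 fold change in each of the 12 alternatives (96 values), and 29 of these values moved by more than the SD between replicates. All 8 stayed above the Control libraries in use wherever this was counted. The choice of the arms on these same libraries largely fixes these signs and this separation, so neither adds support. Their median log2 fold change was 1.43 with total counts and 1.45 with no filter, and 1.19 to 1.32 when a library was left out. Hairpins with both arms higher numbered 48 of 344 with no filter and 15 of 58 with the filter at 50 counts, against 23 of 109. Leaving out a library also changed how many hairpins were fitted. The number was 26 of 112 without GFP-AGO2 replicate 1 and 27 of 112 without GFP-AGO2 replicate 3. It was 42 of 128 without Control replicate 1 and 39 of 133 without Control replicate 3. With a single library in a group more names are separated by construction. Single names higher in both GFP-AGO2 libraries numbered 294 of 1106 with no filter, against 168 of 457. The replicate numbers share no stated origin, and the deviations of same-numbered libraries had r = -0.06 over 457 names. With the replicate block the median of the arms was 1.20, and edgeR called 79 names higher and 85 lower, against 79 and 78 without it. It called 100 higher and 66 lower of 457 names with total counts, and 118 and 84 of 1106 names with no filter. Over the alternatives that kept all 4 libraries, the calls ran from 70 to 118 higher and from 64 to 85 lower. These fits held from 287 to 1106 names, so the numbers of calls are not directly comparable. The lowest counts, 19 and 21 in Control replicate 3 for miR-1981-3p and miR-676-5p, limit the precision of these arms.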
